A study of Homo sapiens with 9 samples.

Results

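Matrix metalloproteinases, ADAMs, ADAMTS proteases, TIMPs, RECK and lysyl oxidases were followed in MDA-MB-231 cells depleted of GLO1. The genes were all those in the count tables whose symbol begins with MMP, ADAM, ADAMTS or ADAMTSL and a number, together with TIMP1, TIMP2, TIMP3, TIMP4, RECK, LOX and LOXL1 to LOXL4. They were 91 of the 26364 genes listed. RNA was sequenced from 9 libraries of MDA-MB-231, a human triple-negative breast cancer line. There were 3 libraries of clone shGLO1#2 and 3 of clone shGLO1#1, each stably expressing an shRNA against GLO1, and 3 of a single control clone with a non-targeting shRNA (shNT). GLO1 encodes the enzyme that detoxifies methylglyoxal (MG), and the comparison asks what rises or falls when that enzyme is lost. Each condition is 1 clone, so p-values here cover the variation among libraries from a clone and not among independently made clones, and the sources used here do not say whether the replicates were separate cultures.

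These genes encode the enzymes that cut, shed and cross-link the surroundings of a cell, and their inhibitors. MMPs are zinc proteases of collagens and other matrix proteins, either secreted or held at the membrane. ADAMs are membrane proteases that shed growth factors, receptors and adhesion molecules, and ADAMTS enzymes are their secreted relatives, many of which cut proteoglycans or procollagens. TIMPs block the active site of these proteases, RECK is a membrane-anchored inhibitor, and lysyl oxidases oxidize lysines of collagen and elastin so that the fibers become cross-linked. In breast cancer this group is known for its part in invasion of the stroma.

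GLO1 mRNA followed the labels of every library, with 14.6, 15.5 and 14.0 CPM (counts scaled to the TMM-normalized library size) in shGLO1#2, 64.2, 65.9 and 65.9 CPM in shGLO1#1 and 323, 312 and 317 CPM in shNT. The libraries held 15314238 to 18495576 counts on genes. All 6 markers of the MDA-MB-231 line that were looked up, vimentin and CD44 among them, were detected in every condition, and ESR1 and PGR, the hormone receptors a triple-negative line lacks, were at 0 to 0.432 CPM. Of the other 6 genes on the list of those low in this line, the keratins KRT8 and KRT18 were abundant, at 860 to 1194 CPM and 543 to 922 CPM over all libraries, and ERBB2 was at 65.6 to 86.3 CPM. The whole list of 8 summed to 1634 to 1706 CPM in shGLO1#2, 1496 to 1830 in shGLO1#1 and 1888 to 2223 in shNT. Summed markers of fibroblasts were at 14.6 to 23.4 CPM in shGLO1#2, 14.0 to 16.6 CPM in shGLO1#1 and 14.6 to 22.4 CPM in shNT. Summed endothelial markers were at 7.76 to 9.81, 6.27 to 8.02 and 4.43 to 5.80 CPM in the same order, and summed leukocyte markers, mostly CD68, at 139 to 160, 141 to 153 and 124 to 130 CPM. Of the defining markers, CDH5 had no count in shGLO1#1 or shNT, while DCN and COL3A1 were at 0 in shGLO1#2 and PDGFRA, FAP and THY1 in shNT. The endothelial and leukocyte sums were higher in every library of the clones than in any shNT library, and single markers moved in both directions. PECAM1 (endothelial) was called higher in shGLO1#2 and in shGLO1#1 (log2 fold changes 1.90 and 1.66), VWF (endothelial) and PDGFRB (fibroblast) were called higher in shGLO1#2 (2.47 and 1.10), and LUM (fibroblast, -4.06 and -2.39) and PTPRC (leukocyte, -1.71 and -2.79) were called lower in shGLO1#2 and in shGLO1#1. The libraries came from clones of the MDA-MB-231 line, so a count on these genes does not by itself show that other cell types were present. Whether any were was not tested. In bulk RNA a lower share of cells expressing a gene and less RNA per cell cannot be told apart.

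MDA-MB-231 cells expressed a restricted part of these families. Of the 91 genes, 46 had enough counts to be tested. The other 45 reached at most 20 counts in any library, and 15 of them had no count at all. All 4 TIMPs, RECK and all 5 lysyl oxidases were tested, as were 5 of 6 membrane-type MMPs, 10 of 20 ADAMs, 10 of 19 ADAMTS genes and 4 of 5 ADAMTS-like genes, against 3 of 17 other MMPs and 4 of 14 antisense genes and pseudogenes. Several secreted MMPs had few counts. MMP9, a gelatinase, had 1 count in the 3 shGLO1#2 libraries together, 3 in shGLO1#1 and 0 in shNT, and MMP2, the other gelatinase, had 11, 13 and 4 counts. MMP3 had 5, 5 and 1 counts, and MMP7 had none. None of these genes passed the low-count filter, so none was tested.

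Scaled to exon length, 8 genes stood above the rest of the set in shNT. TIMP2, the most abundant of them, an inhibitor that also takes part in activating pro-MMP2 at the cell surface, was at 192 ± 7.53 CPM per kb in shGLO1#2, 216 ± 13.7 in shGLO1#1 and 199.9 ± 4.09 in shNT (SD, n = 3 each). MMP14, the membrane collagenase that activates pro-MMP2, was at 119 ± 10.9, 178 ± 8.22 and 88.4 ± 2.53 CPM per kb in the same order. ADAM9, TIMP3, ADAM15, LOXL2, TIMP1 and ADAM8 had shNT means of 45.4 to 117 CPM per kb, those of ADAM9 and TIMP3 being above that of MMP14. In shNT no other gene of the set with a known exon length was above 15.5 CPM per kb, the level of ADAMTS1. MMP1, the interstitial collagenase and the most abundant of the secreted MMPs tested, stood at 17.2, 18.1 and 12.8 CPM per kb in shGLO1#2, shGLO1#1 and shNT. Together the 91 genes took 0.397 to 0.439% of the gene counts in shGLO1#2, 0.478 to 0.509% in shGLO1#1 and 0.370 to 0.379% in shNT, so their summed share was highest in the shGLO1#1 libraries and did not overlap between conditions. This sum adds proteases and inhibitors together and mostly reflects the abundant genes, such as TIMP3 and MMP14. It does not show that the genes rose together, and sums of other gene sets were not compared.

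**Figure D1:**
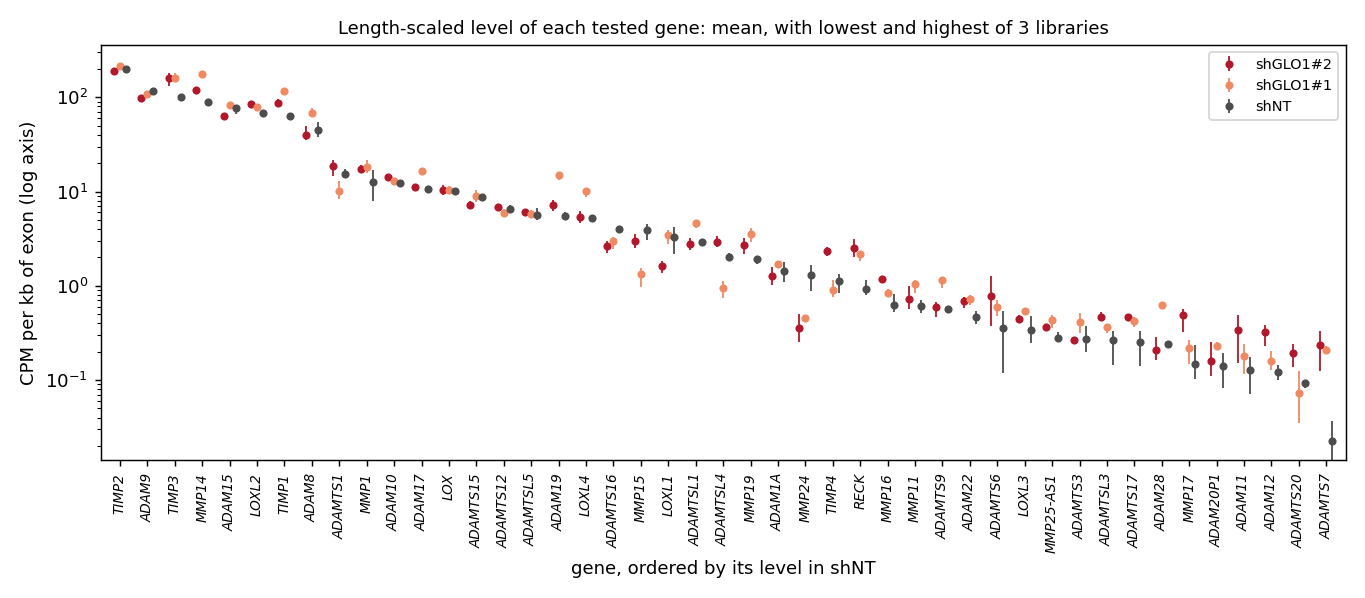
Levels of the 45 tested genes with an exon length, in CPM per kb of exon on a log axis, ordered by their shNT mean; points are means and lines span the lowest and highest of 3 libraries (red shGLO1#2, orange shGLO1#1, grey shNT; the lower end of the ADAMTS7 line in shNT is a library with 0 counts). The first 8 genes, TIMP2 to ADAM8, sit well above the rest, which fall steadily to ADAMTS7.

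More of these genes rose than fell in each clone. Calls needed an adjusted p under 0.05 from edgeR's quasi-likelihood test, with adjustment over all 13704 genes tested, and an absolute log2 fold change over 1. In shGLO1#2, 7 of the 46 genes rose and 2 fell against shNT, or 19.6% of the genes, where 7.68% of all genes tested were called (5.09% higher and 2.59% lower). In shGLO1#1, 6 rose and 3 fell, also 19.6%, where 8.73% of all genes were called (5.98% higher and 2.75% lower). ADAMTS7, MMP17 and ADAMTS20 had 6, 18 and 29 counts over the shNT libraries and passed the low-count filter through libraries where they were higher. These genes were not tested when the filter was a mean of at least 1 CPM. With that filter 4 genes rose and 2 fell in shGLO1#2, and 5 rose and 3 fell in shGLO1#1. The median log2 fold change of the 46 genes was 0.25 in shGLO1#2 and 0.48 in shGLO1#1, beside 0.00 over all genes in either comparison. By the adjusted p alone, shGLO1#2 had 18 genes higher and 6 lower (18.3% and 19.8% of all genes), and shGLO1#1 had 19 higher and 5 lower (22.6% and 23.1%). The clones share their shNT libraries, so their changes against shNT are not independent of each other. ADAMTS7, RECK and MMP24 were called in each comparison, and the other calls belonged to 1 clone.

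**Figure D2:**
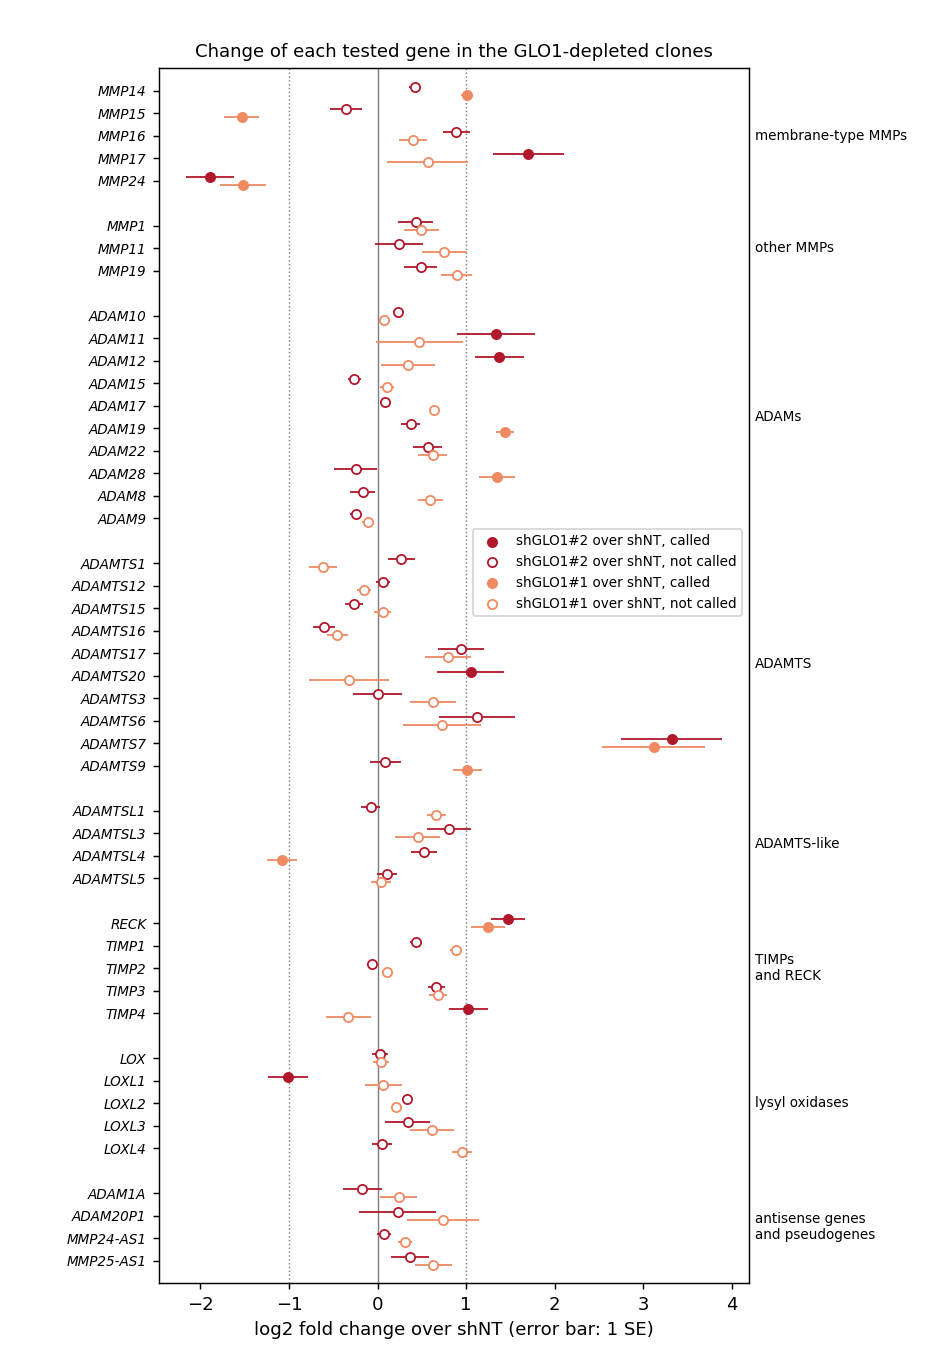
Log2 fold change of each of the 46 tested genes over shNT in shGLO1#2 (red) and shGLO1#1 (orange), grouped by family, with bars of 1 SE; filled points passed the adjusted p and the fold change limit (dotted lines at -1 and 1). ADAMTS7 lies farthest to the right in both clones at 3.32 and 3.11, and MMP24 is left of -1 in both.

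The membrane-type MMPs moved in opposite directions. MMP14 rose in shGLO1#1 and MMP17, which is anchored by a lipid, rose in shGLO1#2, while MMP24 fell in both clones and MMP15 fell in shGLO1#1. The 300-base promoter windows of MMP14, MMP15 and MMP24, and of RECK, an inhibitor of MMP14, are shown as examples from called genes that act at the cell surface. They run from 250 bases before to 50 after the gene start, are taken from RefSeq on GRCh38.p14, and all lie on the plus strand. Capitals mark GC boxes (GGGCGG on either strand).
MMP14, chr14:22836335-22836634: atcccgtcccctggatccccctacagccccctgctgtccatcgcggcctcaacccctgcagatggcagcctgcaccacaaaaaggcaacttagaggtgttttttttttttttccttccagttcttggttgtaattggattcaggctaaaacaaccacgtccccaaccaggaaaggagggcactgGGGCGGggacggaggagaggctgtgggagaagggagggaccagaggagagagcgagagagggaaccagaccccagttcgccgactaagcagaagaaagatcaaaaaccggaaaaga
MMP15, chr16:58025504-58025803: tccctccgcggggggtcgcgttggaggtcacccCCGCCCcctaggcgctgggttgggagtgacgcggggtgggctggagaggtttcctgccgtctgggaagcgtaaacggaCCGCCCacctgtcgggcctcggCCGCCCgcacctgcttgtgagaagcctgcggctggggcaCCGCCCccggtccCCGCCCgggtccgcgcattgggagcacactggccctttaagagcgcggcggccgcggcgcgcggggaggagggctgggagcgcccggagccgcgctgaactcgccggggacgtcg
MMP24, chr20:35226440-35226739: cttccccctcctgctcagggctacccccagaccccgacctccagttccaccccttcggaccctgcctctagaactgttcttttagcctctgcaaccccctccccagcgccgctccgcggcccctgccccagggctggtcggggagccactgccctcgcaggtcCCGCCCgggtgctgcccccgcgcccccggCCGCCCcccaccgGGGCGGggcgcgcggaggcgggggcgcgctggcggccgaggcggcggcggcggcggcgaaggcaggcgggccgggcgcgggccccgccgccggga
RECK, chr9:36036663-36036962: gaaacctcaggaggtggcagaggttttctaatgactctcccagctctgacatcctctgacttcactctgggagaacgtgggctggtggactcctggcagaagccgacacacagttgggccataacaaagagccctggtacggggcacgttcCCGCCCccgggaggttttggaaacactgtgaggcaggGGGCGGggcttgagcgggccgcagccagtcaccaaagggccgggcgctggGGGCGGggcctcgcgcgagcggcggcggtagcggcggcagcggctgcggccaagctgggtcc
The windows hold 1 GC box in MMP14, 5 in MMP15, 3 in MMP24 and 3 in RECK, and 10, 39, 37 and 22 CpG dinucleotides in that order. None of the 4 holds a TATA box (TATAAA) or an AP-1 site (TGANTCA), both searched on both strands. ADAM12 and ADAM19, also called membrane genes, had windows with 3 and 0 GC boxes that are not shown. RefSeq windows were matched for 53 of the 91 genes, 30 of them tested, some genes having more than 1 window. Tested genes with no matched window included MMP1, ADAM9, LOXL2 and TIMP2, so the shares that follow cover the matched genes only. A GC box was in 26 of 33 windows of tested genes of the set (78.8%) and in 10 of 24 windows of genes not tested, beside 65.0% of windows of all genes tested and 45.0% of all windows. A TATA box was in 0 of 33 and 10 of 24, beside 6.33% and 11.5%, and an AP-1 site in 1 of 33 and 3 of 24, beside 5.50% and 7.71%. These matches describe the letters of the windows only.

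MMP14 had 482, 446 and 401 CPM in shGLO1#2, 662, 694 and 633 CPM in shGLO1#1 and 340, 328 and 321 CPM in shNT. The 3 conditions did not overlap, with shGLO1#1 highest. Relative to shNT, shGLO1#1 was at a log2 fold change of 1.01 (adjusted p = 8.90e-08, SE 0.07) and shGLO1#2 at 0.42 (adjusted p = 1.60e-04, SE 0.06), which is short of the fold change limit. The shGLO1#1 value lies at that limit and was 0.99 without shNT replicate 3 and 0.97 without shGLO1#1 replicate 2.

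MMP15, a close relative of MMP14, had 15.2, 12.7 and 10.7 CPM in shGLO1#2, 6.54, 6.42 and 4.11 CPM in shGLO1#1 and 19.5, 17.0 and 13.1 CPM in shNT. It was lower in all shGLO1#1 libraries than in any other, whereas shGLO1#2 and shNT overlapped. On the log2 scale it stood at -1.53 in shGLO1#1 (adjusted p = 2.70e-05, SE 0.19) and -0.36 in shGLO1#2 (adjusted p = 0.134, SE 0.18).

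MMP24, a membrane protease known mainly from neurons, where it cuts N-cadherin, had 1.34, 1.12 and 2.23 CPM in shGLO1#2, 2.04, 2.01 and 2.00 CPM in shGLO1#1 and 7.39, 3.91 and 6.03 CPM in shNT. Every library of the clones was below every shNT library. It fell 3.71-fold in shGLO1#2 (log2 fold change -1.89, adjusted p = 9.36e-05, SE 0.27) and 2.86-fold in shGLO1#1 (-1.52, adjusted p = 3.19e-04, SE 0.26). Its antisense gene MMP24-AS1 was far more abundant, at 116 ± 8.54, 137 ± 12.1 and 110 ± 9.53 CPM in shGLO1#2, shGLO1#1 and shNT (SD, n = 3 each), and was not called in either clone. The exons of the pair were not compared for overlap here.

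MMP17 had 1.46, 0.838 and 1.43 CPM in shGLO1#2, 0.679, 0.381 and 0.627 CPM in shGLO1#1 and 0.605, 0.261 and 0.277 CPM in shNT. It rose in shGLO1#2, where each library exceeded all others, by 1.70 on the log2 scale (adjusted p = 0.00375, SE 0.40), resting on 62 counts over the 3 libraries against 18 in shNT. In shGLO1#1 it was at 0.57 (adjusted p = 0.333). MMP16, another membrane-type MMP, stood at 0.89 in shGLO1#2 (adjusted p = 4.59e-04, SE 0.15) and 0.40 in shGLO1#1 (adjusted p = 0.0549). Without shNT replicate 3, which at 9.36 CPM was above the other shNT libraries at 6.11 and 6.26 CPM, the value in shGLO1#2 was 1.13 and MMP16 was called.

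The secreted MMPs that were tested gave no call. MMP1 had log2 fold changes of 0.43 in shGLO1#2 and 0.49 in shGLO1#1 (adjusted p = 0.0998 and 0.0518), and its shNT libraries spread from 15.8 to 33.1 CPM. MMP11, stromelysin-3, was at 0.24 and 0.75 (adjusted p = 0.517 and 0.0262), and MMP19 at 0.49 and 0.89 (adjusted p = 0.0512 and 0.00107), all within the fold change limit. MMP19 passed that limit in shGLO1#1 without shGLO1#1 replicate 3 (1.02). MMP10, stromelysin-2, was not tested by edgeR, with 5, 1 and 9 counts in the shGLO1#2 libraries, 2, 2 and 3 in shGLO1#1 and 0, 0 and 1 in shNT. It was called higher in shGLO1#2 by DESeq2 (log2 fold change 3.77, adjusted p = 0.0483) and by edgeR with no filter on low counts (3.44, adjusted p = 0.0156).

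Of the ADAMs, ADAM19 and ADAM28 rose in shGLO1#1, and ADAM12 and ADAM11 rose in shGLO1#2. ADAM19, a sheddase of neuregulins, had 58.0, 48.9 and 43.7 CPM in shGLO1#2, 108, 113 and 94.6 CPM in shGLO1#1 and 35.2, 43.1 and 38.1 CPM in shNT. All shGLO1#1 libraries were above all others. The increase in shGLO1#1 was 2.71-fold (log2 fold change 1.44, adjusted p = 1.93e-07, SE 0.10), and shGLO1#2 was at 0.37 (adjusted p = 0.0133, SE 0.11).

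ADAM28, first known from lymphocytes, had 2.13, 1.28 and 1.24 CPM in shGLO1#2, 4.51, 4.84 and 4.73 CPM in shGLO1#1 and 1.81, 1.76 and 1.94 CPM in shNT. It was raised in every shGLO1#1 library, while shGLO1#2 spread on both sides of shNT. On the log2 scale shGLO1#1 exceeded shNT by 1.35 (adjusted p = 1.21e-04, SE 0.20) and -0.25 in shGLO1#2 (adjusted p = 0.445).

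ADAM12, a membrane protease that sheds HB-EGF, had 3.41, 2.01 and 3.16 CPM in shGLO1#2, 1.79, 1.25 and 1.14 CPM in shGLO1#1 and 0.873, 1.11 and 1.27 CPM in shNT. Its shGLO1#2 libraries were above all others, and shGLO1#1 overlapped shNT. Its rise in shGLO1#2 was 1.37 on the log2 scale (adjusted p = 0.00131, SE 0.27), and it was at 0.34 in shGLO1#1 (adjusted p = 0.388).

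ADAM11, a neuronal ADAM without a working protease site, had 2.31, 0.726 and 1.74 CPM in shGLO1#2, 0.555, 0.870 and 1.14 CPM in shGLO1#1 and 0.336, 0.652 and 0.830 CPM in shNT. Replicate 2 of shGLO1#2 lay within the range of shNT. Its fitted log2 fold change in shGLO1#2 was 1.34 (adjusted p = 0.0281, SE 0.44). This call ended without shNT replicate 1 (1.07, adjusted p = 0.102) or 2 (1.37, adjusted p = 0.0614) and without shGLO1#2 replicate 1 (0.97, adjusted p = 0.124) or 3 (1.27, adjusted p = 0.0653).

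The other tested ADAMs stayed within the fold change limit. ADAM17, which releases TNF and ligands of the EGF receptor, was at 0.08 in shGLO1#2 and 0.63 in shGLO1#1 on the log2 scale (adjusted p = 0.308 and 1.43e-06), with 71.2 to 76.2 CPM in shGLO1#1 and 45.9 to 47.6 CPM in shNT. Its annotated exons overlap those of IAH1 on the other strand, and IAH1 was at -0.16 in shGLO1#2 and 0.30 in shGLO1#1 (adjusted p = 0.206 and 0.0197). ADAM10, a sheddase of Notch and cadherins, was at 0.23 and 0.07, ADAM9 at -0.25 and -0.11, and ADAM15 at -0.26 and 0.11, in shGLO1#2 and shGLO1#1. ADAM8 was at 0.59 in shGLO1#1 (adjusted p = 0.00386) and -0.17 in shGLO1#2 (adjusted p = 0.386). ADAM22, which lacks a working protease site and binds LGI proteins in the brain, was at 0.57 and 0.62 (adjusted p = 0.0136 and 0.00646). No call was made for any of them in either clone.

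The ADAMTS proteases held the largest change of the set. ADAMTS7, which degrades cartilage oligomeric matrix protein, had 30, 25 and 11 counts in shGLO1#2, 18, 19 and 22 counts in shGLO1#1 and 3, 0 and 3 counts in shNT, or 1.83, 1.40 and 0.683 CPM, 1.11, 1.03 and 1.25 CPM and 0.202, 0 and 0.166 CPM. It was near silent in shNT and present in every library of the clones. Fitted log2 fold changes were 3.32 in shGLO1#2 (adjusted p = 4.06e-04, SE 0.57) and 3.11 in shGLO1#1 (adjusted p = 6.49e-04, SE 0.58). ADAMTS7 has near-identical pseudogene copies, and its counts are uncertain to that extent. The copy listed in the count tables, ADAMTS7P1, had no count.

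ADAMTS9, a protease of versican, had 5.85, 5.75 and 4.10 CPM in shGLO1#2, 10.8, 10.9 and 8.21 CPM in shGLO1#1 and 4.84, 5.02 and 4.93 CPM in shNT. All shGLO1#1 libraries were above the rest. Its increase of 1.01 on the log2 scale in shGLO1#1 (adjusted p = 1.89e-04, SE 0.16) lies at the limit and was 0.95 without shGLO1#1 replicate 1 and 0.94 without replicate 2. In shGLO1#2 it was 0.09. The antisense ADAMTS9-AS1, whose exons overlap it, had no count.

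ADAMTS20, also a protease of versican, had 1.34, 0.893 and 1.55 CPM in shGLO1#2, 0.370, 0.816 and 0.228 CPM in shGLO1#1 and 0.538, 0.652 and 0.609 CPM in shNT. The shGLO1#2 libraries were above all others, from 63 counts against 29 in shNT. Its call in shGLO1#2 (log2 fold change 1.05, adjusted p = 0.0417, SE 0.38) was fragile. It ended with DESeq2 (adjusted p = 0.113), without any shNT library (0.98 to 1.11, adjusted p = 0.0758 to 0.106), without shGLO1#1 replicate 1 (adjusted p = 0.0530) and without shGLO1#2 replicate 1 (1.01, adjusted p = 0.0856) or 3 (0.89, adjusted p = 0.131).

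ADAMTS6 spread widely within conditions, with 2.74, 9.21 and 5.15 CPM in shGLO1#2, 4.38, 5.22 and 3.48 CPM in shGLO1#1 and 0.873, 3.98 and 2.99 CPM in shNT. The second library was the highest and the first the lowest in shGLO1#2 and in shNT. In shGLO1#2 it was at 1.12 on the log2 scale (adjusted p = 0.0554, SE 0.43), and with the replicate number as a block, which pairs these conditions, ADAMTS6 was called higher (1.10, adjusted p = 0.00221). It was also called with upper-quartile factors, with no filter on low counts, and without shNT replicate 2 (1.52) or shGLO1#2 replicate 1 (1.46). ADAMTS17 was at 0.94 in shGLO1#2 (adjusted p = 0.0107) and 0.79 in shGLO1#1 (adjusted p = 0.0236). Without shNT replicate 1 it was called in both clones, at 1.21 and 1.06, and without shNT replicate 2 in shGLO1#2, at 1.02.

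ADAMTS14, a procollagen N-proteinase, fell below edgeR's filter on low counts and had 1, 0 and 0 counts in shGLO1#2, 12, 9 and 7 counts in shGLO1#1 and 0, 1 and 0 counts in shNT. It was present in all shGLO1#1 libraries and nearly absent elsewhere. From 28 counts against 1, the level in shGLO1#1 was 25.9 times that in shNT, with an exact (Clopper-Pearson) 95% interval of 4.29 to 1061 that covers counting error only. DESeq2 called it higher in shGLO1#1 (log2 fold change 4.59, adjusted p = 0.00593), as did edgeR with no filter (4.27, adjusted p = 2.96e-04). ADAMTS13, the protease of von Willebrand factor, was also below the filter, with 21, 33 and 9 counts over the libraries of shGLO1#2, shGLO1#1 and shNT. It was called higher in shGLO1#1 with no filter (1.72, adjusted p = 0.0279) and without shGLO1#1 replicate 2 (1.94), and in both clones without shGLO1#2 replicate 2, which held 1 count (1.69 in shGLO1#2 and 1.73 in shGLO1#1).

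The remaining ADAMTS genes gave no call. ADAMTS1, which cuts versican and aggrecan, was at -0.61 in shGLO1#1 (adjusted p = 0.00608, SE 0.16) and 0.27 in shGLO1#2 (adjusted p = 0.193). ADAMTS16 was at -0.60 in shGLO1#2 and -0.45 in shGLO1#1 (adjusted p = 0.00164 and 0.00828). ADAMTS3, ADAMTS12 and ADAMTS15 lay between -0.27 and 0.63.

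Of the ADAMTS-like genes, which have no protease domain, ADAMTSL4 fell in shGLO1#1. ADAMTSL4, a partner of fibrillin microfibrils, had 15.4, 11.8 and 12.3 CPM in shGLO1#2, 3.39, 4.41 and 5.13 CPM in shGLO1#1 and 10.1, 9.06 and 8.36 CPM in shNT. The conditions did not overlap, with shGLO1#2 highest and shGLO1#1 lowest. ADAMTSL4 changed by -1.08 on the log2 scale in shGLO1#1 (adjusted p = 1.49e-04, SE 0.17) and stood at 0.52 in shGLO1#2 (adjusted p = 0.0130, SE 0.15). Without shGLO1#1 replicate 1, its lowest library, the decrease in shGLO1#1 was -0.94 and no longer called. The antisense ADAMTSL4-AS1, which overlaps it by exon, had 8, 3 and 1 counts in shGLO1#2, shGLO1#1 and shNT. ADAMTSL1 was at 0.66 in shGLO1#1 (adjusted p = 2.02e-04) and -0.08 in shGLO1#2, ADAMTSL3 at 0.81 and 0.45 and ADAMTSL5 at 0.11 and 0.04 in shGLO1#2 and shGLO1#1. ADAMTSL3 was called in shGLO1#2 without shNT replicate 3 (1.02).

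Of the 4 TIMPs and RECK, 2 rose in shGLO1#2 and 1 rose in shGLO1#1, and none was called lower. RECK, which restrains MMP2, MMP9 and MMP14 at the cell surface, had 15.3, 12.2 and 9.80 CPM in shGLO1#2, 11.4, 11.5 and 9.01 CPM in shGLO1#1 and 3.90, 5.61 and 3.93 CPM in shNT. Every library of the clones was above every shNT library. RECK rose 2.78-fold in shGLO1#2 (log2 fold change 1.48, adjusted p = 3.99e-05, SE 0.19) and 2.38-fold in shGLO1#1 (1.25, adjusted p = 1.46e-04, SE 0.19), and it kept its calls under all alternatives tried.

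TIMP4 rose in shGLO1#2. It had 4.26, 3.41 and 3.85 CPM in shGLO1#2, 1.36, 1.25 and 1.88 CPM in shGLO1#1 and 2.22, 1.37 and 2.05 CPM in shNT. The shGLO1#2 libraries stood above all others. Against shNT the log2 difference was 1.02 in shGLO1#2 (adjusted p = 0.00223, SE 0.22) and -0.33 in shGLO1#1 (adjusted p = 0.304). The first value was 0.85 without shNT replicate 2 and 0.95 without shGLO1#2 replicate 1, both short of the fold change limit.

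TIMP1 and TIMP3, abundant inhibitors though below TIMP2 in shNT, were higher in every library of the clones than in any shNT library without passing the fold change limit. TIMP1 had 138, 117 and 122 CPM in shGLO1#2, 169, 178 and 167 CPM in shGLO1#1 and 95.1, 91.3 and 93.1 CPM in shNT, with log2 fold changes of 0.43 (adjusted p = 1.27e-04, SE 0.06) and 0.88 (adjusted p = 2.01e-07, SE 0.06). TIMP3, which binds the matrix and also inhibits ADAM17, had 839, 613 and 754 CPM in shGLO1#2, 691, 722 and 826 CPM in shGLO1#1 and 438, 458 and 498 CPM in shNT. Its log2 fold changes were 0.66 (adjusted p = 1.30e-04, SE 0.10) and 0.68 (adjusted p = 8.30e-05, SE 0.10). TIMP2 stood at -0.06 in shGLO1#2 and 0.11 in shGLO1#1 (adjusted p = 0.422 and 0.113).

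The lysyl oxidases held a single called gene. LOXL1, which acts on elastic fibers, had 3.23, 3.96 and 4.34 CPM in shGLO1#2, 6.48, 9.14 and 8.61 CPM in shGLO1#1 and 9.81, 5.09 and 8.36 CPM in shNT. Its shGLO1#2 libraries were below all others. Its log2 value against shNT was -1.01 for shGLO1#2, a decrease (adjusted p = 0.00304, SE 0.23), and 0.06 for shGLO1#1 (adjusted p = 0.830). The value in shGLO1#2 was -0.82 without shNT replicate 1, -0.94 without shNT replicate 3, -0.89 without shGLO1#2 replicate 1 and -0.96 with upper-quartile factors, each short of the limit. The antisense LOXL1-AS1, which overlaps LOXL1 by exon, had more counts than LOXL1. The pair shares 242 exon bases, and since the strand setting of the counting is not known, how reads over them were assigned is not known either. LOXL1-AS1 was at 11.6 ± 2.497 CPM in shGLO1#2, 12.7 ± 1.47 in shGLO1#1 and 14.9 ± 2.26 in shNT (SD, n = 3 each), with log2 fold changes of -0.35 in shGLO1#2 and -0.23 in shGLO1#1 (adjusted p = 0.0953 and 0.250).

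LOX was level across the conditions, at 53.6 ± 6.24 CPM in shGLO1#2, 53.7 ± 5.24 in shGLO1#1 and 52.5 ± 2.82 in shNT (SD, n = 3 each), with log2 fold changes of 0.03 in each clone (SE 0.09). LOXL2, which cross-links collagen IV, was at 0.33 in shGLO1#2 and 0.21 in shGLO1#1 (adjusted p = 2.62e-04 and 0.00558). LOXL4 had 22.5, 17.0 and 19.7 CPM in shGLO1#2, 31.7, 38.7 and 40.0 CPM in shGLO1#1 and 20.2, 18.6 and 18.4 CPM in shNT. On the log2 scale it was at 0.95 in shGLO1#1 (adjusted p = 1.43e-05, SE 0.11) and 0.05 in shGLO1#2. Without shGLO1#1 replicate 1 it was 1.04 and LOXL4 was called. LOXL3, whose exons overlap HTRA2 on the other strand, was at 0.34 and 0.61 in shGLO1#2 and shGLO1#1 (adjusted p = 0.326 and 0.0571). The antisense genes and pseudogenes that were tested, ADAM1A, ADAM20P1, MMP24-AS1 and MMP25-AS1, lay between -0.17 and 0.74 and were not called.

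**Figure D3:**
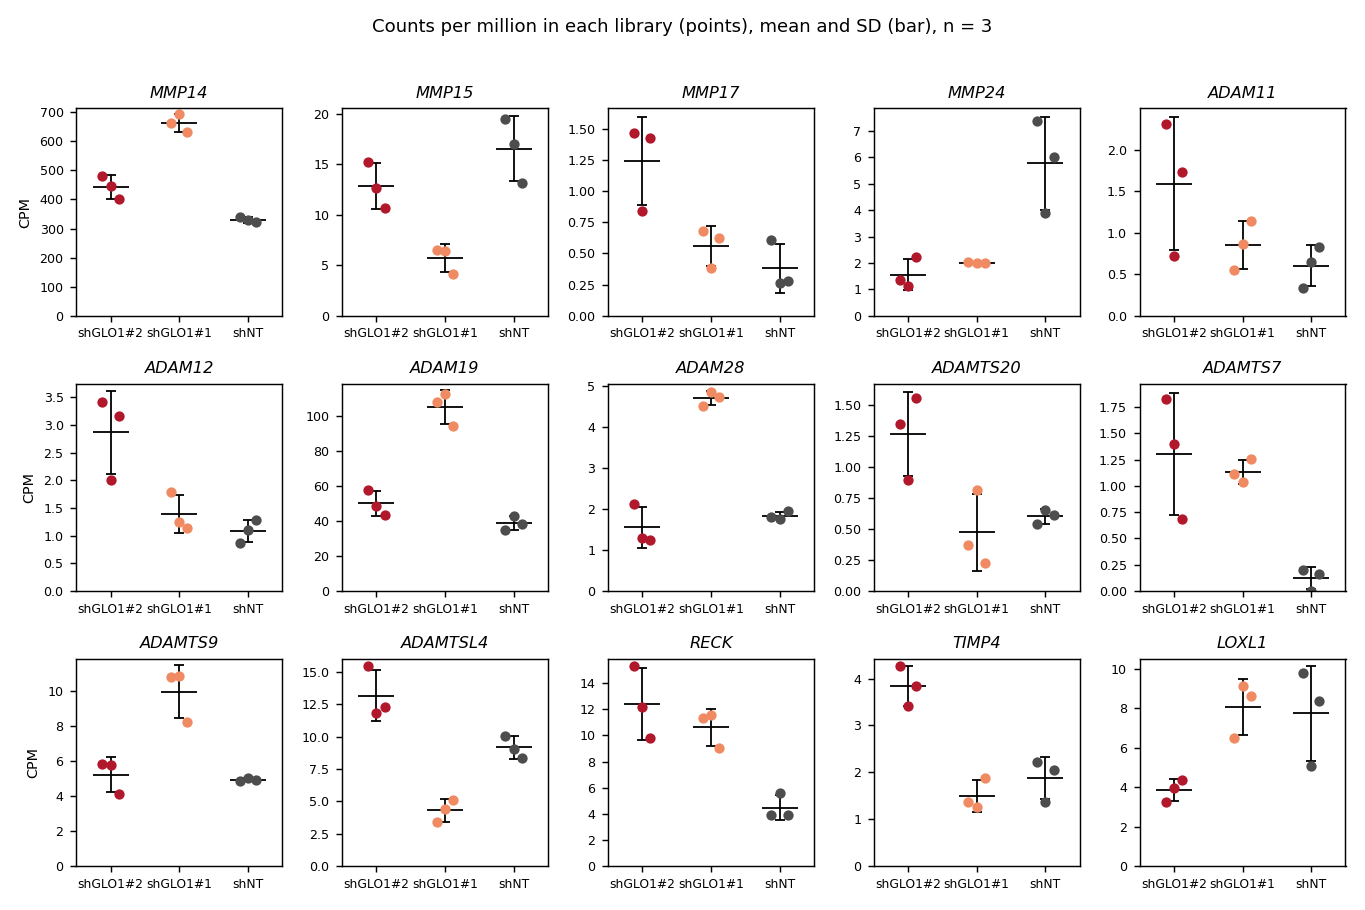
CPM in each library (points, linear axes from 0) of the 15 genes called in at least 1 of the 3 comparisons, with the mean and SD of 3 libraries, in shGLO1#2, shGLO1#1 and shNT from left to right. Every library of both clones lies below shNT in MMP24 and above it in MMP14, RECK and ADAMTS7, ADAMTSL4 lies above shNT in shGLO1#2 and below it in shGLO1#1, and in ADAM11 the conditions overlap.

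The clones differed from each other in 9 of the 46 genes, or 19.6%, where 7.09% of all genes tested were called between them. Against shGLO1#1, 6 genes were higher in shGLO1#2 (3.33% of all genes were) and 3 were lower (3.75%). By the adjusted p alone, 10 were higher and 14 lower, beside 22.8% and 23.7% of all genes. ADAMTSL4 had the highest log2 fold change of shGLO1#2 over shGLO1#1 at 1.60 (adjusted p = 3.53e-06, SE 0.16). ADAMTS20 (1.38), TIMP4 (1.35), MMP15 (1.18), MMP17 (1.14) and ADAM12 (1.04) were higher in shGLO1#2 as well. ADAM28 was lower in shGLO1#2 (-1.60, adjusted p = 3.32e-05, SE 0.21), as were LOXL1 (-1.07) and ADAM19 (-1.07). The 3 genes called in both clones did not pass this test, with differences of -0.38 for MMP24 (SE 0.31), 0.21 for ADAMTS7 (SE 0.36) and 0.22 for RECK (SE 0.17). MMP14 was at -0.58 between the clones (adjusted p = 7.94e-06, SE 0.06) and ADAM17 at -0.55 (adjusted p = 4.46e-06, SE 0.06), both within the fold change limit. The call of ADAM12 ended without shGLO1#1 replicate 2 or 3 or shGLO1#2 replicate 1 or 3 (0.89 to 0.96). That of MMP17 ended with DESeq2 (1.16, adjusted p = 0.0688) and without shGLO1#1 replicate 2 or shGLO1#2 replicate 1 or 3 (0.91 to 1.02). LOXL1 was at -0.97 without shGLO1#1 replicate 2 and -0.96 without shGLO1#2 replicate 1, MMP15 at 0.99 without shGLO1#1 replicate 3, and ADAM19 at -0.98 without shGLO1#2 replicate 3. ADAM11 was called higher without shGLO1#2 replicate 2 (1.23). ADAMTS9 was called lower without shGLO1#1 replicate 3 (-1.05) or shGLO1#2 replicate 1 (-1.01), and LOXL4 without shGLO1#2 replicate 1 (-1.003). ADAMTS1 was called higher without shGLO1#1 replicate 3 (1.08) or shGLO1#2 replicate 1 (1.03). ADAMTS14, below the filter, was called lower in shGLO1#2 than in shGLO1#1 by DESeq2 (-4.66, adjusted p = 0.00521) and by edgeR with no filter (-4.32, adjusted p = 2.35e-04).

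**Figure D4:**
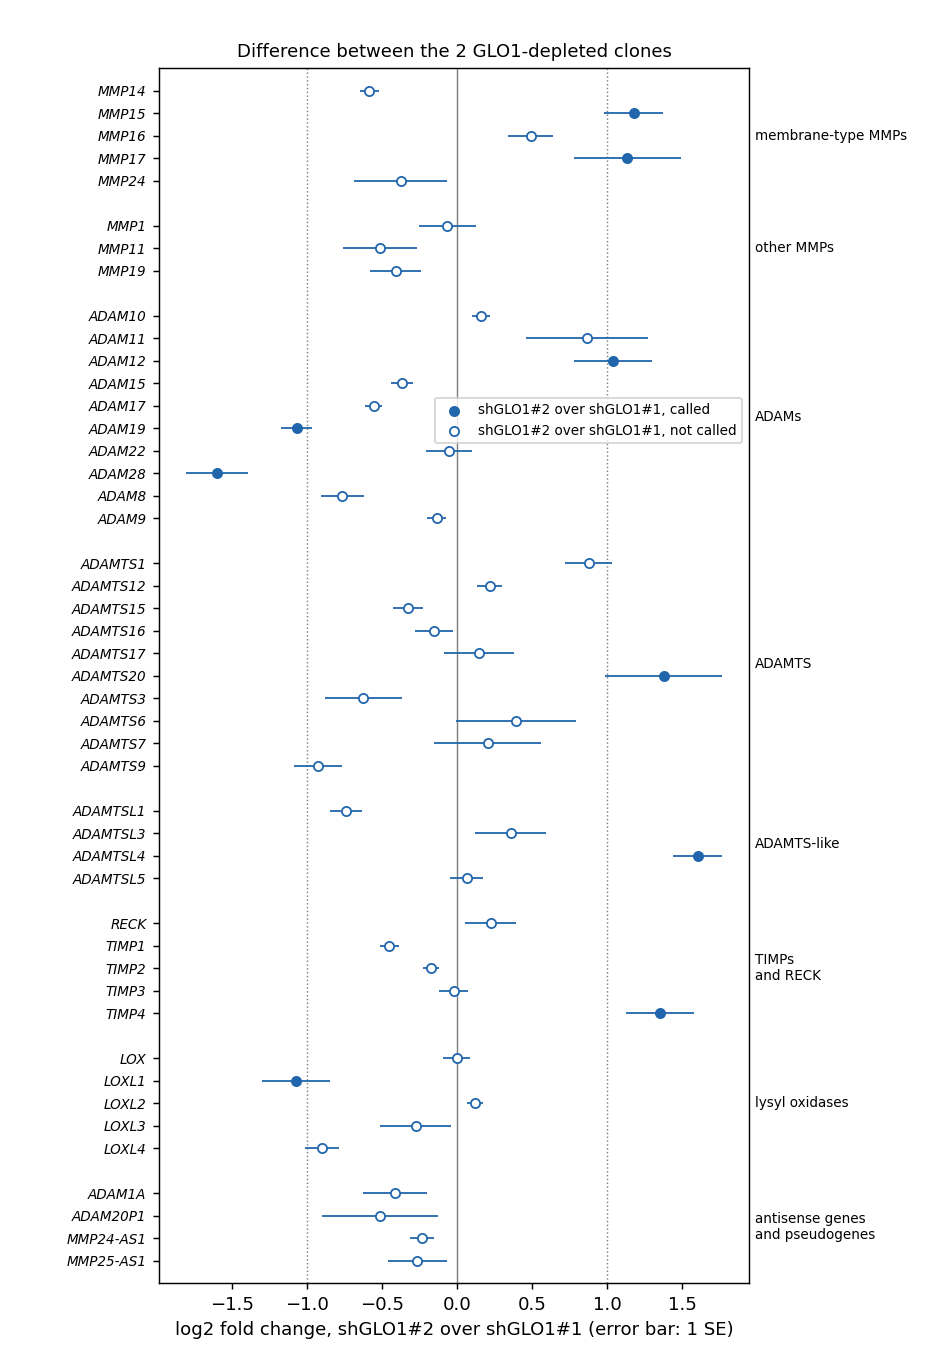
Log2 fold change of shGLO1#2 over shGLO1#1 for the 46 tested genes, grouped by family, with bars of 1 SE; filled points passed the adjusted p and the fold change limit (dotted lines at -1 and 1). ADAMTSL4 (1.60) and ADAM28 (-1.60) lie at the ends.

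Genes that act beside these enzymes were taken from lists. Of 14 tested activators and partners of the proteases, such as FURIN and the tetraspanins of ADAM10, none was called in shGLO1#2. TSPAN33, a tetraspanin that guides ADAM10, rose in shGLO1#1 (log2 fold change 1.30, adjusted p = 5.03e-04). In shGLO1#2 TSPAN33 was at 0.98 (adjusted p = 0.00583), just short of the fold change limit. TSPAN14, a more abundant tetraspanin of the list, was lower within that limit, at -0.82 in shGLO1#2 and -0.67 in shGLO1#1 (adjusted p = 3.75e-07 and 1.35e-06). Of 22 tested other matrix proteases and inhibitors, shGLO1#2 had 5 higher and 2 lower, and shGLO1#1 had 5 higher and 1 lower, beside 5.09% higher and 2.59% lower of all genes in shGLO1#2 and 5.98% and 2.75% in shGLO1#1. HTRA3, a secreted serine protease with only 8 counts over the shNT libraries, rose in both clones (2.18 and 3.82, adjusted p = 0.0117 and 3.16e-05). DPP4, a membrane dipeptidyl peptidase, fell in both (-2.52 and -2.63). SPOCK3, a testican that rose in both (1.35 and 3.19), had 3.05, 2.74 and 3.41 CPM in shGLO1#2, 12.3, 10.6 and 10.04 CPM in shGLO1#1 and 0.538, 1.37 and 1.61 CPM in shNT, and PAPLN, a relative of the ADAMTS-like proteins, fell in shGLO1#2 (-1.77). Of 22 tested collagen-modifying and cross-linking enzymes, shGLO1#2 had 3 higher and 0 lower, and shGLO1#1 had 2 higher and 1 lower, beside the same shares of all genes. P3H3, a prolyl hydroxylase of collagen, rose in shGLO1#2 (2.25) and P3H2 fell in shGLO1#1 (-1.13). FKBP10, a collagen chaperone, rose in both (1.50 and 1.98), as did the transglutaminase TGM5 (1.80 and 1.42), from 15 and 14 counts over the shNT libraries. HTRA3, FKBP10 and TGM5 passed the low-count filter through libraries of the clones, where they were higher. With a mean of at least 1 CPM as the filter, 1 collagen-modifying enzyme was higher in shGLO1#2 and 0 in shGLO1#1. The medians of the 3 lists were -0.05, 0.02 and 0.08 in shGLO1#2 and 0.19, 0.50 and -0.03 in shGLO1#1.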

How the data were processed

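The deposited files hold raw counts of reads per gene for each library. Per the submitters' processing notes, the authors used bcl2fastq 2.17, TopHat2 2.1.1, the hg19 build and HTSeq. For HTSeq, the version, annotation and strand setting were not given in the sources used here. Tally lines that name no gene were left out of library sizes and tests. They took 12.8 to 15.2% of reads (no feature), 1.50 to 1.95% (ambiguous) and 5.76 to 6.15% (not unique).

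From these counts, edgeR 4.0.16 (R 4.3.3) was run with TMM factors on all 9 libraries together, after a filter that asked for about 10 counts in a group of libraries and 15 in total. Differences were tested by its quasi-likelihood test with Benjamini-Hochberg adjustment over all genes tested, and the SE was derived from the F statistic. The same steps were run on simulated data. Changes were placed there only in genes with higher counts, so that run does not bear on calls at low counts. Genes were described in full where they were called in at least 1 comparison, and the rest by family. The genes and the lists were chosen with earlier results of these data known.

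Same-numbered libraries of shGLO1#2 and shNT deviated together from their group means (correlations across genes 0.21, 0.19 and 0.31). Pairing by number was used only in an alternative fit, the replicate block, and the main fit was unpaired. The pairing comes from the replicate numbers in the titles, and what a number stands for is not stated there. For shGLO1#1 and shNT the correlations were -0.03, 0.06 and 0.25, and for shGLO1#2 and shGLO1#1 they were 0.20, 0.07 and 0.34. Alternatives were other scalings (RLE, upper quartile), other filters, DESeq2 1.42.0, the replicate block, fits of only the compared groups and leaving out each library. Exon lengths and overlapping genes came from GENCODE annotation on GRCh38 and promoter windows from RefSeq on GRCh38.p14, neither of which is the build of the counts, so both served only for lengths, names, neighbours and sequence.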

Additional observations from a re-analysis of the deposited data

Results flagged for a closer look

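The clones' changes against shNT differed by a test of the difference itself in 9 genes. The log2 fold change of shGLO1#2 over shGLO1#1 was 1.60 for ADAMTSL4, 1.38 for ADAMTS20, 1.35 for TIMP4, 1.18 for MMP15, 1.14 for MMP17 and 1.04 for ADAM12. It was -1.60 for ADAM28 and -1.07 for both LOXL1 and ADAM19. Since each shRNA is represented by 1 clone, the shRNA, the remaining GLO1 level and the clone cannot be told apart.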

How the results depend on the processing

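Of 709 values of the 15 called genes under the alternatives, 671 kept their side of the threshold, 35 lost a call, 3 gained one and 0 calls changed direction. The 709 values include comparisons not called in the main fit, which had no call to lose. They leave out fits in which a gene was not tested, so the tally is not the share of calls that held. The direction of values called in neither fit was not compared. The largest shift that another scaling gave the median of all genes was 0.051 on the log2 scale, with upper-quartile factors. With the adjusted p alone, the genes of the set gave 18 higher and 6 lower in shGLO1#2 against shNT, 19 and 5 in shGLO1#1 against shNT, and 10 and 14 in shGLO1#2 against shGLO1#1. In the same order of comparisons, the activators and partners then gave 2 and 4, 4 and 2, and 2 and 3, the other matrix proteases and inhibitors 8 and 6, 14 and 3, and 2 and 13, and the collagen-modifying enzymes 6 and 4, 5 and 5, and 10 and 5. Of all genes, 18.3% and 19.8%, 22.6% and 23.1%, and 22.8% and 23.7% then passed. With a mean of at least 1 CPM, 4 genes of the set were higher in shGLO1#2 against shNT, and 1 collagen-modifying enzyme was higher in shGLO1#2 and 0 in shGLO1#1. ADAMTS20, ADAMTS7 and MMP17 were not tested there, and ADAMTS20 and MMP17 not in every fit of only 2 groups. With upper-quartile factors, 1 gene of the set was lower and 1 activator higher in shGLO1#2 against shNT. Between the clones, 2 collagen-modifying enzymes were higher with upper-quartile factors, RLE factors, DESeq2 or only the 2 groups. With no filter, 1 activator was higher in shGLO1#2 against shNT and 1 between the clones. With no filter or DESeq2, 2 other matrix proteases were lower in shGLO1#1.

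Leaving out each library in turn gave, for genes of the set, 5 to 8 higher and 1 to 2 lower in shGLO1#2 against shNT, 5 to 7 higher and 2 to 3 lower in shGLO1#1 against shNT, and 4 to 7 higher and 2 to 4 lower between the clones. The other matrix proteases ranged over 3 to 5 higher in shGLO1#2, 5 to 8 higher in shGLO1#1 and 5 to 7 lower between the clones. The activators ranged over 0 to 1 higher in shGLO1#2 and 0 to 1 lower between the clones, and the collagen-modifying enzymes over 1 to 2 higher in shGLO1#1 and 1 to 2 higher between the clones. With the replicate number as a block, 8 genes of the set were higher and 2 lower in shGLO1#2 against shNT, 5 and 3 in shGLO1#1 against shNT, and 6 and 3 between the clones. The block added ADAMTS6 in shGLO1#2 and ended ADAMTS9 in shGLO1#1 (0.999). The cause of these changes was not tested.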
